A study of Homo sapiens with 8 samples.

Results

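The transcripts described here are those of the E2F transcription factors and of the retinoblastoma (RB) family that restrains them, in MDA-MB-231 breast cancer cells given a photosensitive compound, UV-A light or both. The members were 10 genes chosen by name: E2F1, E2F2, E2F3, E2F4, E2F5, E2F7, E2F8, RB1, RBL1 and RBL2. Rows with those names were taken from the 2 FPKM tables of the series, which list 48162 genes for round 1 and 58676 for round 2, and 45341 identifiers are in both. The names matched 11 rows in round 1 and 10 in round 2. The extra row, also named RBL1 in round 1 only, lies on the opposite strand and was left out. All 10 members passed the filter on low values that left 12696 genes to test.

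E2F factors bind the promoters of genes needed for DNA replication and cell division. E2F1, E2F2 and E2F3 are activators, E2F4 and E2F5 act mainly as repressors together with RB family proteins, and E2F7 and E2F8 are atypical repressors that bind DNA without a DP partner. RB1 and its relatives RBL1 (p107) and RBL2 (p130) bind E2F factors and silence their targets until cyclin-dependent kinases phosphorylate them. Several of the genes in this circuit, E2F1 among them, are themselves targets of E2F.

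MDA-MB-231 is a mesenchymal-like, triple-negative human breast cancer line. Cells were plated at 600000 per well and held for 24 h in vehicle (1% DMSO) or in 10 µM of either of a pair of triphenylphosphonium salts. Their plates were then irradiated with UV-A for 30 min (8 bulbs, 325 to 375 nm) or kept dark. The compound 1-SO carries an oxo group, (5-oxo-2-dibenzothienylmethyl)triphenylphosphonium. The compound 1-S lacks it and is spelt (2-dibenylthienylmethyl)triphenylphosphonium in the labels. Round 1 used cells at passage 8 and gave 4 libraries: vehicle and 1-SO, each dark and irradiated. Round 2 used cells at passages 32 to 34 and gave vehicle and 1-S, likewise dark and irradiated. Each vehicle group thus had 2 libraries, 1 per round, and each compound group had 1. Compound, round and passage changed together, so a difference between the compounds and a difference between the rounds cannot be told apart. Plate and light were likewise the same thing, and the sources used here do not give the time from irradiation to lysis.

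The libraries held 15.8 to 22.6 M counted reads. The 1-SO UV-A library had 0.93% of its reads in mitochondrial genes, against 2.40 to 3.12% in the other 7. VIM, an intermediate filament of mesenchymal cells, stood at 219 to 317 FPKM (fragments per kilobase of gene, scaled to the reads of the library), while the estrogen receptor gene ESR1 reached at most 0.0504 FPKM and the epithelial cadherin CDH1 at most 0.0369. EPCAM, another epithelial marker, ran from 2.25 to 5.57 FPKM. The leukocyte marker PTPRC reached at most 0.116 FPKM, and the endothelial marker PECAM1, looked at in round 2 only, ran from 0.101 to 0.411. Whether libraries of a group came from separate cultures is not stated beyond the round, and p-values here measure only the spread between these libraries. In the model behind every comparison with a compound, each compound group was a single library with its own term. The spread there came only from the vehicle libraries of both rounds, moderated over genes. No spread within a compound group was measured. In bulk RNA, fewer cycling cells and less RNA per cell cannot be told apart.

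The promoters of the members are shown first, because the genes that moved and those that did not can be set beside their E2F-type sequences. The windows are the 250 bases before the start site in RefSeq (GRCh38.p14), 5′ to 3′ on the gene's strand, and 8 of the 10 members had one. Capitals mark matches, on either strand, to 4 E2F-type motifs (TTTCCCGC, TTTGGCGC, TTTCGCGC and TTTGCCGC) or to the cell cycle homology element TTTGAA, whose reverse complement is TTCAAA. The motifs did not overlap in these windows. E2F1 (chr20:33686386-33686635, minus strand) had 2 E2F-type matches, at 33 to 26 and at 20 to 13 bases before the start. E2F2 (chr1:23531234-23531483, minus strand) had 1, at 42 to 35 bases. RBL1 (chr20:37095998-37096247, minus strand) had 2, at 26 to 19 and at 16 to 9 bases. E2F3 (chr6:20401629-20401878, plus strand) had 1 at 53 to 46 bases, and TTTGAA at 65 to 60. E2F7 (chr12:77065570-77065819, minus strand) had none of them.
E2F1: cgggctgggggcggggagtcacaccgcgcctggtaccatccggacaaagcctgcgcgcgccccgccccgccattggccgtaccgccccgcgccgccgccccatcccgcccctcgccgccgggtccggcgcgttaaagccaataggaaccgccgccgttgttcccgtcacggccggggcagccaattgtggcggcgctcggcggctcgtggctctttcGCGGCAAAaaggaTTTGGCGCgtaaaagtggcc
E2F2: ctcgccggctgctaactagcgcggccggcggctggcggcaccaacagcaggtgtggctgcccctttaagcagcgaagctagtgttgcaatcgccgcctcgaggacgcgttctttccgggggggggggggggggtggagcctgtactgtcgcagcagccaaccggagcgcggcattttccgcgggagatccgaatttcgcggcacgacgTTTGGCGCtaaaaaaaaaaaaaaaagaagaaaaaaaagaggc
RBL1: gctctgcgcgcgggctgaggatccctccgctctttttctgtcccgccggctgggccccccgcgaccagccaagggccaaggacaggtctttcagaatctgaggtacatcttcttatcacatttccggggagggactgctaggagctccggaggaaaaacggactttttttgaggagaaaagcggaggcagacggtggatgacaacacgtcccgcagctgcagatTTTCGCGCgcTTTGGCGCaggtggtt
E2F3: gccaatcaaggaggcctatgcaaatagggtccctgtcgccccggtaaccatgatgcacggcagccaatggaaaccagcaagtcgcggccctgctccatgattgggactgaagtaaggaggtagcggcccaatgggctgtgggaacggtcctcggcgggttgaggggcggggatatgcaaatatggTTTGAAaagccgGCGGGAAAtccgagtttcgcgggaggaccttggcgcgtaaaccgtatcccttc
E2F7: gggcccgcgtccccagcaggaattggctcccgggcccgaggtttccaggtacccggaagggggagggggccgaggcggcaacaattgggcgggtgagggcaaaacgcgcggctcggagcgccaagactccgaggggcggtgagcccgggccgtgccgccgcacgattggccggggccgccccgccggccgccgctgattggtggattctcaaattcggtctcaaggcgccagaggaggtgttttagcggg
E2F4 and RBL2 had no match either. The RBL2 windows belong to start sites 494 and 1642 bases inside the gene as the round 2 table places it. They do not cover the start listed there, and their lack of a match says nothing of it. Another E2F3 window, of a start site 1708 bases inside that gene, had no match and is not shown. Of all 35116 RefSeq windows of this length, 2.79% held at least 1 of the 4 E2F-type motifs. TTTCCCGC was in 1.39% of them, TTTGGCGC in 0.55%, TTTCGCGC in 0.439%, TTTGCCGC in 0.49% and TTTGAA in 13.3%. A match is a description of letters, and its absence says only that those letters were not in the window. RB1's RefSeq window lay 172699 bases inside the gene as the round 2 table places it, so it says nothing of that gene's main start and is not shown.

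Among the activators, E2F1 was the most abundant member per length in dark vehicle cells. In round 1 the vehicle held 71.0 FPKM in the dark and 34.6 after UV-A, while 1-SO held 64.9 and 15.5. In round 2 the vehicle held 62.2 and 63.9 FPKM and 1-S held 13.9 and 17.1, again dark first. The 1-SO UV-A library was thus lowest in round 1, where vehicle UV-A lay between it and the dark libraries, and both 1-S libraries were below both vehicle libraries of round 2. E2F2, a close relative of E2F1, had the same libraries lowest within each round at a much lower level. In round 1, dark then UV-A, the vehicle held 4.02 and 1.78 FPKM and 1-SO held 3.64 and 0.356. In round 2 the vehicle held 3.21 and 3.78 FPKM and 1-S held 0.780 and 0.432. The low values rest on few reads: 41 in irradiated 1-SO, 93 in dark 1-S and 45 in irradiated 1-S cells, against 146 to 449 in the vehicle libraries. E2F3, the third activator, was flat within each round. It ran from 22.4 to 23.6 FPKM over the libraries of round 1 and from 17.0 to 17.6 over those of round 2.

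The repressor-type factors varied less than E2F1 and E2F2. E2F4 ran from 32.1 to 37.6 FPKM in round 1, where the 1-SO UV-A library was lowest, and from 24.4 to 27.8 in round 2, where both 1-S libraries were below the vehicle ones. E2F5 was scarce and went the other way. In round 1, dark then UV-A, the vehicle held 1.66 and 2.21 FPKM of it and 1-SO held 1.61 and 2.30. In round 2 the vehicle held 1.43 and 1.48 FPKM and 1-S held 2.46 and 2.75. The 1-S libraries were above both vehicle libraries of their round, while in round 1 both irradiated libraries were above both dark ones.

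The 2 atypical repressors parted. For E2F7 the vehicle of round 1 held 38.1 FPKM in the dark and 43.3 after UV-A, while 1-SO held 39.8 and 60.4. The vehicle of round 2 held 37.4 and 36.9 FPKM and 1-S held 45.8 and 45.3. The 1-SO UV-A library was the highest of its round and both 1-S libraries were above their vehicles. E2F8, which shares its targets with E2F7 in other systems, went the other way. In round 1, dark then UV-A, the vehicle held 6.75 and 4.77 FPKM of it and 1-SO held 5.95 and 2.20. In round 2 the vehicle held 4.57 and 5.21 FPKM and 1-S held 2.30 and 1.90. The 3 libraries that were lowest in their rounds for E2F1 were lowest there for E2F8. The ratio of E2F8 to E2F7 was 0.110 to 0.177 in the vehicle libraries and in 1-SO dark, and 0.036 to 0.050 in those 3.

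The pocket proteins divided as well. For RBL1, itself an E2F target, the vehicle of round 1 held 11.6 FPKM in the dark and 9.68 after UV-A, while 1-SO held 11.7 and 6.69. The vehicle of round 2 held 14.0 and 13.8 FPKM and 1-S held 7.20 and 5.64. The 1-SO UV-A and both 1-S libraries were again lowest in their rounds. RB1 differed less. In round 1, dark then UV-A, the vehicle held 18.6 and 20.4 FPKM of it and 1-SO held 18.8 and 15.6. In round 2 the vehicle held 24.6 and 24.8 FPKM and 1-S held 19.5 and 19.6. 1-SO UV-A and both 1-S libraries were below the vehicles of their rounds. RBL2, the family member that is highest in resting cells in many systems, was at 8.23 and 9.85 FPKM in the vehicle and at 8.63 and 6.15 in 1-SO, dark then UV-A, in round 1. In round 2 it ran from 3.59 FPKM in 1-S UV-A to 4.63 in vehicle dark.

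**Figure D1:**
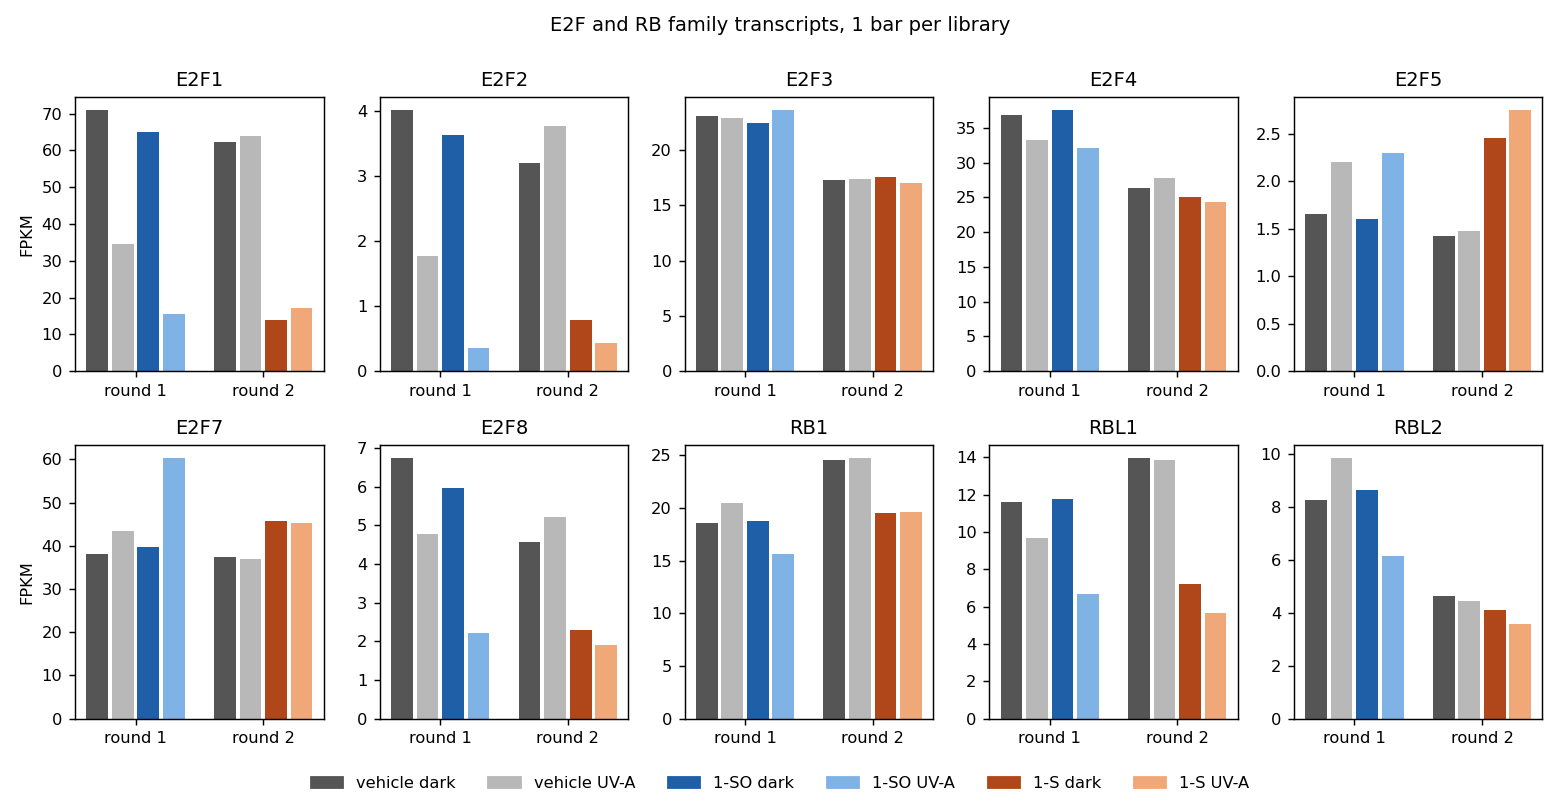
FPKM of each of the 10 members (vertical axes, each starting at 0), with 1 bar per library, round 1 on the left and round 2 on the right of each panel. Within each round E2F1, E2F2, E2F8 and RBL1 are lowest in 1-SO UV-A and in the 2 1-S libraries, E2F3 is flat within each round, and E2F7 is highest in 1-SO UV-A at 60.4 FPKM.

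The order of the family by level changed between libraries. E2F1 ranked first of the 10 members per length, with E2F7 next, in the dark vehicle libraries of both rounds, in 1-SO dark and in vehicle UV-A of round 2. E2F7 ranked first in the other 4 libraries. The ratio of E2F7 to E2F1 was 0.537 and 0.601 in dark vehicle cells of rounds 1 and 2, 0.613 in 1-SO dark and 0.578 in vehicle UV-A of round 2. It was 1.25 in vehicle UV-A of round 1, 3.89 in irradiated 1-SO cells, 3.29 in dark 1-S cells and 2.65 in irradiated ones. In those last 3 libraries E2F4 was also above E2F1, at 2.07, 1.80 and 1.43 times its level. E2F2 and E2F5 exchanged places at the lower end: E2F5 was last in both dark vehicle libraries, in 1-SO dark and in vehicle UV-A of round 2, and E2F2 in the other 4.

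Irradiated 1-SO cells were compared with irradiated vehicle cells to ask what the oxidized compound did under light. E2F1, E2F2, E2F8, RBL1 and RBL2 fell, 5 of the 10 members, and none rose. Over all tested genes 7.05% were called lower and 4.47% higher at an adjusted p under 0.05 (edgeR, quasi-likelihood test with Benjamini-Hochberg adjustment). E2F2 moved most, by -2.86 ± 0.43 on the log2 scale (± is the SE throughout, edgeR adjusted p = 6.5e-05). E2F1 moved by -1.56 ± 0.25 (edgeR adjusted p = 0.00011) and E2F8 by -1.41 ± 0.31 (edgeR adjusted p = 0.0028). RBL1 and RBL2 fell by about the same amount, with log2 changes of -0.70 ± 0.20 and -0.70 ± 0.22 and edgeR adjusted p-values of 0.021 and 0.034. The remaining members had log2 values of 0.43 ± 0.19 for E2F7 (edgeR adjusted p = 0.15), -0.46 ± 0.18 for RB1 (edgeR adjusted p = 0.10), -0.21 for E2F4, -0.06 for E2F3 and 0.05 for E2F5.

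These fitted changes set 1-SO against a vehicle light response shared by both rounds. Between the libraries of round 1 alone the log2 ratios were -2.40 for E2F2, -1.23 for E2F1, -1.19 for E2F8, -0.61 for RBL1 and -0.76 for RBL2, and RBL1 was then not called (edgeR adjusted p = 0.081). The estimates rest on vehicle UV-A of round 1: without it the log2 changes were -3.90 for E2F2, -2.39 for E2F1 and -1.965 for E2F8. The median log2 change was -0.58 over the 10 members and 0.01 over all tested genes. The same library also had the low mitochondrial share given above, whose part in these values was not tested. With 1 compound library, DESeq2 called E2F2 alone of the 5, and without the round term in the edgeR model no member was called here or in any other comparison.

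**Figure D2:**
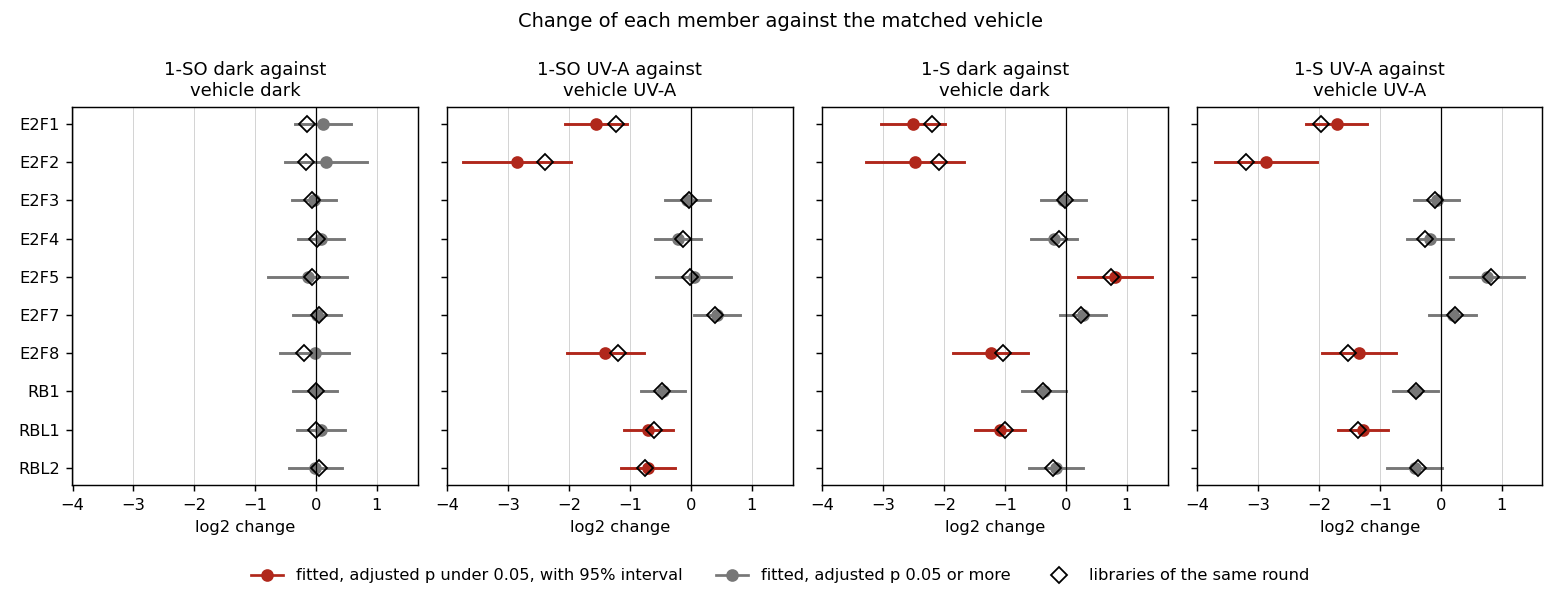
Log2 change of each member (horizontal axis) against vehicle under the same light for the 4 compound groups; circles are fitted values with 95% intervals, red where the edgeR adjusted p was under 0.05, and open diamonds are ratios of libraries within the round. All 10 members lie near 0 for 1-SO dark, while E2F1, E2F2, E2F8 and RBL1 are red and left of 0 in the other 3 panels.

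In the dark, 1-SO cells were compared with dark vehicle cells. None of the 10 members was called, and 0% of the tested genes were (edgeR), with no member and 26 genes at an unadjusted p under 0.05. DESeq2 and both limma fits called none of the members either. The fitted log2 values ran from -0.14 for E2F5 to 0.16 for E2F2. For E2F1 the value was 0.11, with a 95% interval from -0.35 to 0.57, and for E2F2 the interval ran from -0.52 to 0.84, so a change of the size that irradiated 1-SO cells had lies outside these intervals.

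Light alone was compared within vehicle cells. None of the 10 members was called over both rounds, and 0% of the tested genes were (edgeR). At an unadjusted p under 0.05 there were 347 genes, and E2F1 was the only member among them, at a log2 change of -0.52 ± 0.18 (edgeR adjusted p = 0.98). DESeq2 and both limma fits called no member. The rounds did not show the same response. In round 1 E2F1 went from 3338 reads in the dark to 1369 with light, a log2 ratio of -1.10, whereas in round 2 it had 3512 and 3477 reads and a ratio of 0.06. E2F2 had log2 ratios of -1.24 and 0.26 in rounds 1 and 2, E2F8 of -0.57 and 0.21, and RBL1 of -0.33 and 0.00. In round 1 alone, an alternative chosen after seeing the data, E2F1 was called lower between the 2 libraries (edgeR likelihood ratio adjusted p = 0.013) and was the only member called, where 0.291% of the tested genes were called lower; that test compares the libraries, not the conditions.

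**Figure D3:**
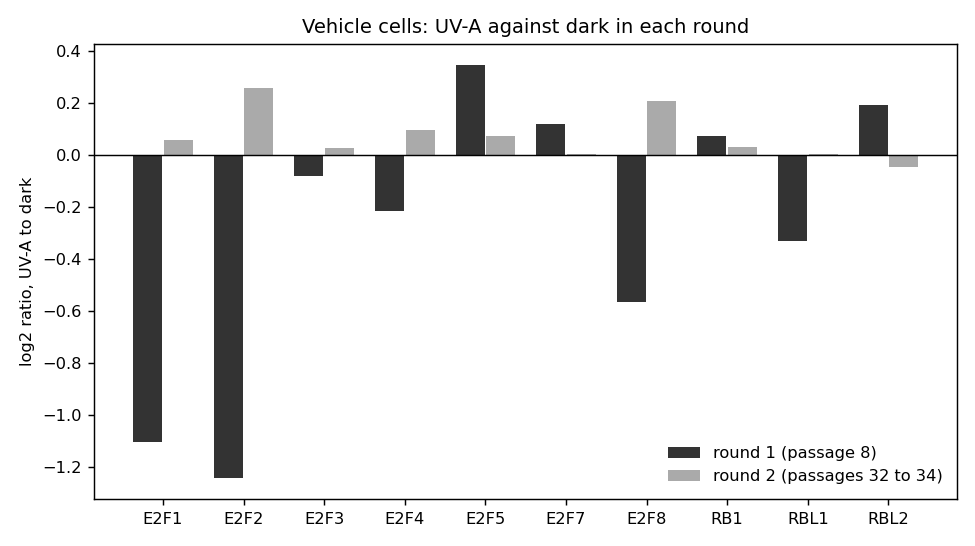
Log2 ratio of UV-A to dark in vehicle cells (vertical axis) for each member, with dark bars for the vehicle pair of round 1 and light bars for that of round 2, and 1 library behind each side of a ratio. E2F1 and E2F2 are at -1.10 and -1.24 in round 1 and above 0 in round 2.

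Within 1-SO cells, irradiated cells were compared with dark ones. E2F1, E2F2, E2F8 and RBL1 were called lower, 4 of 10 members, and none higher, against 9.21% and 5.57% of the tested genes (edgeR). The log2 changes were -3.48 ± 0.44 for E2F2 (edgeR adjusted p = 3.1e-06), -2.19 ± 0.26 for E2F1 (edgeR adjusted p = 1.4e-06), -1.56 ± 0.32 for E2F8 and -0.94 ± 0.21 for RBL1. DESeq2 did not call RBL1 (adjusted p = 0.057), and limma on log2(FPKM + 1) also called E2F7 higher. The interaction asks whether UV-A changed a gene more in 1-SO than in vehicle cells. E2F1, E2F2 and E2F8 were called lower by it, 3 of 10, and none higher, against 2.9% and 1.47% of the tested genes (edgeR). The interaction was -3.02 ± 0.51 for E2F2, -1.67 ± 0.31 for E2F1 and -1.39 ± 0.38 for E2F8 on the log2 scale, with edgeR adjusted p-values of 0.00054, 0.0014 and 0.032. It depended on the vehicle used: without either vehicle library of round 1 it was -3.73 for E2F2, -2.245 for E2F1 and -1.76 for E2F8. Against the vehicle pair of round 1 it was -2.23 for E2F2, which kept its call, -1.09 for E2F1 (edgeR adjusted p = 0.13) and -0.99 for E2F8 (edgeR adjusted p = 0.41). DESeq2 did not call E2F1 (adjusted p = 0.58) and gave no adjusted p for E2F2 and E2F8, and E2F8 also lost its call with median-of-ratios scaling (edgeR adjusted p = 0.051).

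1-S cells were compared with vehicle cells in the dark. E2F1, E2F2, E2F8 and RBL1 fell and E2F5 rose, 4 and 1 of 10 members, where 15% of the tested genes were called lower and 15.9% higher (edgeR). E2F1 changed by -2.51 ± 0.26 on the log2 scale (edgeR adjusted p = 3.4e-08) and E2F2 by -2.47 ± 0.39 (edgeR adjusted p = 2.9e-05). E2F8 changed by -1.23 ± 0.30 and RBL1 by -1.08 ± 0.20, at edgeR adjusted p-values of 0.0027 and 0.00017, and DESeq2 did not call E2F8 (adjusted p = 0.059). E2F5 rose by 0.81 ± 0.30 (edgeR adjusted p = 0.038), a call that was lost within round 2 (edgeR adjusted p = 0.070), without the filter on low values, in both limma fits and in DESeq2. RB1 had a log2 value of -0.36 ± 0.18 (edgeR adjusted p = 0.12) and E2F7 of 0.28 ± 0.19 (edgeR adjusted p = 0.26). E2F3, E2F4 and RBL2 lay between -0.19 and -0.04. Within round 2 the ratios of the called members were -2.20 for E2F1, -2.08 for E2F2, -1.03 for E2F8, -0.997 for RBL1 and 0.74 for E2F5. The values rest on vehicle dark of round 2: without it they were -3.36 for E2F1, -3.58 for E2F2, -1.80 for E2F8, -1.33 for RBL1 and 1.02 for E2F5.

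Under UV-A the same 4 genes fell in 1-S cells against irradiated vehicle cells. They were 4 of 10 members, with none called higher, where 13.7% of the tested genes were called lower and 13.8% higher (edgeR). The log2 changes were -2.87 ± 0.41 for E2F2, -1.71 ± 0.24 for E2F1, -1.34 ± 0.30 for E2F8 and -1.28 ± 0.20 for RBL1, with edgeR adjusted p-values of 7.1e-06, 6.1e-06, 0.0013 and 2.3e-05. DESeq2 did not call E2F1 there (adjusted p = 0.073). E2F5 had a log2 value of 0.76 ± 0.30 (edgeR adjusted p = 0.059) and RB1 of -0.41 ± 0.18 (edgeR adjusted p = 0.084). Within round 2 the ratios were -3.19 for E2F2, -1.97 for E2F1, -1.52 for E2F8 and -1.36 for RBL1, and E2F5, at 0.83, was then called higher (edgeR likelihood ratio test). Vehicle UV-A of round 2 carries these values: without it the log2 changes were -1.69 for E2F2, -0.81 for E2F1 and -0.75 for E2F8. Light did not add a called change within 1-S cells. None of the 10 members was called between 1-S UV-A and 1-S dark, 0% of the tested genes were (edgeR), and 0 members and 308 genes had an unadjusted p under 0.05. DESeq2 and both limma fits called no member there or for the interaction. E2F2 had the lowest log2 value there, -0.86 with a 95% interval from -1.79 to 0.08. The interaction of UV-A with 1-S called no member and 0% of the tested genes (edgeR), with 1 member, E2F1 at 0.80, and 285 genes at an unadjusted p under 0.05.

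The compounds, which differ by the oxo group, were compared at the matched dose of 10 µM and 24 h, each relative to vehicle, giving 2 comparisons with p-values adjusted over all 12696 genes. In the dark E2F1, E2F2, E2F8 and RBL1 were higher with 1-SO than with 1-S, 4 of 10 members, and none was lower, where 8.4% of the tested genes were called higher and 8.77% lower (edgeR). The difference was 2.63 for E2F1 (95% interval 1.99 to 3.26, edgeR adjusted p = 9.2e-07), 2.64 for E2F2 (1.66 to 3.61, edgeR adjusted p = 0.00031), 1.21 for E2F8 (0.44 to 1.98, edgeR adjusted p = 0.027) and 1.16 for RBL1 (0.64 to 1.68, edgeR adjusted p = 0.0022), in log2 units. With each compound set against the vehicle of its own round the differences were 2.05, 1.92, 0.83 and 0.99, and E2F8 was not called (edgeR adjusted p = 0.26), nor was it by DESeq2 or limma. Without the dark vehicle library of either round they were 3.21, 3.415, 1.603 and 1.33. E2F3 had a difference of 0.01, with a 95% interval from -0.47 to 0.48.

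Under UV-A none of the 10 members was called between the compounds, where 3.55% of the tested genes were (edgeR). RBL1 alone of the members had an unadjusted p under 0.05, at a log2 difference of 0.58 (edgeR adjusted p = 0.26), and DESeq2 and both limma fits called no member. The difference was 0.15 for E2F1, with a 95% interval from -0.48 to 0.79, and 0.02 for E2F2, with an interval from -1.23 to 1.26, so these intervals leave room for differences in either direction. Against own-round vehicles the differences were 0.74 for E2F1 and 0.80 for E2F2. Since 1-SO was used only in round 1 and 1-S only in round 2, the compound and the batch cannot be told apart in either comparison.

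Taking the 4 matched pairs of an irradiated and a dark library together, UV-A called no member and 0% of the tested genes (edgeR). An unadjusted p under 0.05 was found for 2 members, RBL1 at a log2 change of -0.40 ± 0.15 and E2F2 at -1.23 ± 0.53, and for 581 genes. DESeq2 and both limma fits called no member. The pairs differed among themselves: for E2F1 the log2 change was -2.19 in 1-SO cells, -1.10 in vehicle cells of round 1, 0.06 in vehicle cells of round 2 and 0.28 in 1-S cells.

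The authors' own comparisons were made on single libraries. In the authors' deposited table of 1-SO UV-A against vehicle UV-A, the log2 fold change was -2.40 for E2F2, with an adjusted p of 0.00333, and -1.23 for E2F1, with an adjusted p of 0.508. In the authors' deposited table of 1-S dark against vehicle dark they were -2.28 for E2F1 (adjusted p 5.72e-05) and -2.16 for E2F2 (adjusted p 0.000551). In the authors' deposited table of 1-S UV-A against vehicle UV-A, E2F1 stood at -2.03, E2F2 at -3.25 and E2F8 at -1.58, with adjusted p-values of 0.000577, 2.77e-08 and 0.0267. RBL1 missed the threshold in that authors' deposited table, at -1.42 and an adjusted p of 0.0508. Other members called here missed an adjusted p of 0.05 in the authors' deposited tables too. For 1-SO UV-A against vehicle UV-A these were E2F8 at -1.19, RBL1 at -0.611 and RBL2 at -0.758. For 1-S dark against vehicle dark they were E2F8 at -1.11, RBL1 at -1.08 and E2F5 at 0.658.

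Of 9 genes for DP partners, E2F6 and the MuvB complex, which joins E2F4 and RBL1 or RBL2 in a repressor, 8 were tested. In irradiated 1-SO cells against irradiated vehicle 2 of the 8 were called lower and 0 higher (edgeR), with a median log2 change of -0.13 beside 0.01 over all genes. Over all tested genes 7.05% were lower and 4.47% higher there. In dark 1-S cells 3 were lower and 1 higher, beside 15% and 15.9% of all tested genes, so the 1 higher call is near the share over all genes. In irradiated 1-S cells 3 were lower and 0 higher, beside 13.7% and 13.8%. For TFDP1, the main DP partner, the vehicle of round 1 held 90.5 and 67.2 FPKM, dark then UV-A, and 1-SO held 85.6 and 48.6. The vehicle of round 2 held 67.6 and 75.4 FPKM and 1-S held 33.9 and 36.3. It changed by -0.73 ± 0.21 on the log2 scale in irradiated 1-SO cells (edgeR adjusted p = 0.022) and by -1.21 ± 0.21 in dark 1-S cells (edgeR adjusted p = 9.1e-05). MYBL2, which MuvB recruits for mitotic genes, changed by -1.11 in irradiated 1-SO cells and by -1.003 in dark 1-S cells. RBBP4, a histone-binding subunit, fell by 0.88 in dark 1-S cells. TFDP2 stood at 5.32 to 6.81 FPKM in all 8 libraries, and E2F6, a repressor that needs no pocket protein, at 7.17 to 9.55 FPKM, and neither was called in any of the 4 comparisons with vehicle.

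Of 16 listed kinases, cyclins and inhibitors that set the state of the pocket proteins, 14 were tested. CDKN2A and CDKN2B, inhibitors of the D-type cyclin kinases, were listed at 0 or at no more than 0.021 FPKM in every library. In irradiated 1-SO cells 3 of 14 were called higher and 3 lower (edgeR), beside 4.47% and 7.05% of all tested genes. In dark 1-S cells the counts were 3 and 5, beside 15.9% and 15%. In irradiated 1-S cells they were 3 and 3, beside 13.8% and 13.7%, and these counts and the 3 higher calls in dark 1-S cells lie near the shares over all genes. CDKN1A, which encodes the kinase inhibitor p21, was at 78.2 and 81.4 FPKM in the vehicle of round 1, dark then UV-A, and at 74.0 and 250.02 in 1-SO. In round 2 the vehicle held 41.7 and 41.1 FPKM and 1-S held 185 and 209. It rose by 1.54 ± 0.19 on the log2 scale in irradiated 1-SO cells (edgeR adjusted p = 5.1e-06) and by 2.11 ± 0.19 in dark 1-S cells (edgeR adjusted p = 3.9e-09). CCND2, a D-type cyclin at 1.35 to 7.73 FPKM, rose by 2.11 and 2.16 in the same comparisons. CDKN1C, a further inhibitor of the family, rose by 1.32 and 3.67. The more abundant D-type cyclin CCND1 was called lower in both, at -0.96 and -1.435 (edgeR). It went from 229 FPKM in vehicle UV-A to 128 in 1-SO UV-A, and from 222 in vehicle dark of round 2 to 87.1 in 1-S dark. CCND3 was called in neither. CCNE2, a cyclin E, changed by -1.28 in irradiated 1-SO cells and by -2.40 in dark 1-S cells. CDKN1C was also the gene of this list that differed between the compounds under UV-A, at a log2 difference of -2.16 for 1-SO against 1-S (edgeR adjusted p = 0.0024), each relative to vehicle. Under UV-A it went from 10.5 FPKM in the vehicle to 21.4 in 1-SO in round 1, and from 1.87 in the vehicle to 32.7 in 1-S in round 2.

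Most of the listed genes that E2F is known to drive fell in the same libraries as E2F1. The list had 28 genes, of which 27 were measured and tested, and it holds RBL1, a member. In irradiated 1-SO cells against irradiated vehicle 22 of 27 were called lower and 0 higher (edgeR), beside 7.05% and 4.47% of all tested genes. The median log2 change was -0.996, or -0.77 within round 1, beside 0.01 over all genes. In dark 1-S cells 24 were lower and 0 higher, beside 15% and 15.9% of all tested genes, with a median of -1.11. In irradiated 1-S cells 20 were lower and 0 higher, beside 13.7% and 13.8%, with a median of -0.99. CCNE1, a cyclin E, went the other way without being called, at 0.412 in dark and 0.575 in irradiated 1-S cells. SLBP and EZH2 were at 0.083 and 0.005 in irradiated 1-S cells. Light in vehicle cells, over both rounds, called 0 of 27, with a median of -0.27 beside -0.004 over all genes. Thymidylate synthase (TYMS) changed by -1.66 in irradiated 1-SO cells, from 32.0 FPKM in vehicle UV-A to 12.9. Vehicle cells of round 1 held 58.8 FPKM of TYMS in the dark, so their level was lower with UV-A before any compound. Those of round 2 held 7.34 FPKM in the dark and 7.87 with UV-A. RRM2, a subunit of ribonucleotide reductase, fell by 2.32 in dark 1-S cells, from 27.7 to 6.63 FPKM, and MCM6, a subunit of the replicative helicase, changed by -2.19. Dark 1-SO cells had 0 of 27 called in either direction, beside 0% of all tested genes (edgeR), with a median of 0.07. Within round 1 the median was -0.09 and all 27 lay below the vehicle library, and DESeq2 called 0 of all genes tested there. Between the compounds 21 of 27 were higher with 1-SO in the dark and 1 with light, while 0 were lower in both. Of all tested genes 8.4% and 1.28% were called higher there, and 8.77% and 2.27% lower. The list was put together with earlier results of these data known, so its counts are a description.

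**Figure D4:**
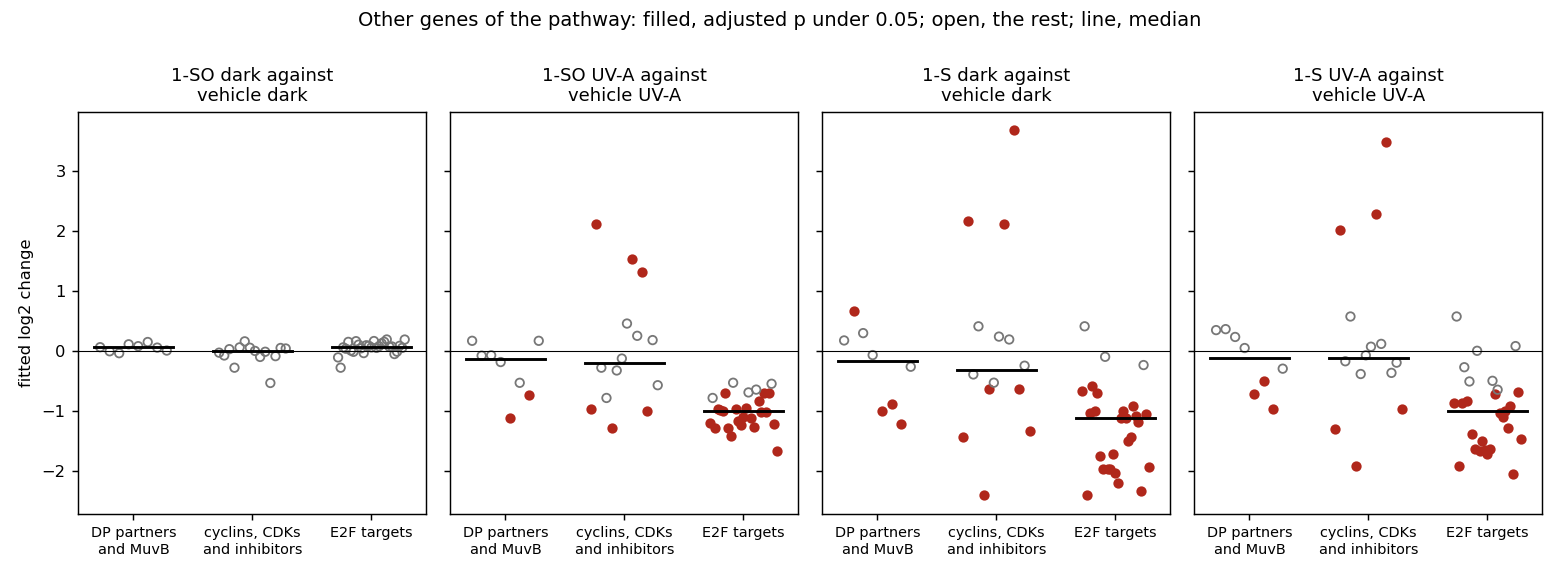
Fitted log2 change against vehicle under the same light (vertical axis) of the tested genes in the lists of partners and MuvB subunits (8), kinases, cyclins and inhibitors (14) and E2F targets (27), with 1 point per gene, filled where the edgeR adjusted p was under 0.05, and a line at the median. Most E2F targets lie below 0 in irradiated 1-SO and in dark and irradiated 1-S cells, with medians of -0.996, -1.11 and -0.99. CCNE1 lies above 0 in both 1-S panels. In 1-SO dark the targets lie near 0.

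Across the 8 libraries, on log2(FPKM + 1) centred within each round, E2F1 ran closest to E2F2 among the members (Pearson r = 0.98), then to E2F8 (0.97) and RBL1 (0.95). It ran opposite to E2F5 (-0.93) and E2F7 (-0.92), and its r with E2F3 was -0.43. All pairs of genes share the same 8 libraries and the same few treatments, so these values describe the pattern and carry no test. Among the other tested genes the most like E2F1 were HMGA1, a chromatin protein (r = 0.9992), DTL, a substrate adaptor of a ubiquitin ligase (0.9986), and UNG, a uracil glycosylase of base excision repair (0.9986). UNG went from 121 FPKM in vehicle dark to 25.8 in 1-SO UV-A, and from 66.6 to 16.2 in 1-S dark. The most like E2F8 were CHID1 (r = 0.9957), the lamin gene LMNB2 (0.9951) and CLSPN, which encodes the checkpoint adaptor claspin (0.995). The most like RB1 were BFSP1 (r = 0.9987), TOP2A, the topoisomerase of dividing cells (0.9954), and EPS8L2 (0.9951).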

How the data were processed

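Poly-T selected RNA of 8 MDA-MB-231 libraries was sequenced. Whole-number read counts for every gene and library come from tables the authors deposited. FPKM values were deposited by the authors too, and recomputing them from count, gene length and library total gave the same numbers to within a relative error of 0.00076. Log2 fold changes and adjusted p-values between pairs of libraries stand in comparison tables deposited by the authors. STAR 2.5, HTSeq 0.6.1, edgeR 3.16.5, STAR-Fusion, TopHat and DESeq2 appear in the submitters' processing notes, beside both hg38 and hg19. The sources used here do not give the role of each tool, the build used for each round or the use of strand in counting. Without strand, reads of a gene and an antisense partner cannot be told apart. Coordinates printed are those of GRCh38. Gene lengths differ between the rounds' tables, so high and low levels were read within a round, and ranges given over all 8 libraries carry that difference.

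Round 1 counts were taken out of the comparison tables, and round 2 counts out of a count table. Of 45341 shared identifiers, 12696 reached 1 FPKM in 2 or more libraries and were tested with edgeR 4.0.16 (quasi-likelihood test, R 4.3.3), using TMM factors set within each round. The model held round, the vehicle light response and a separate term for every compound group. Its residual degrees of freedom numbered 1, moderated with 26 prior ones, and the biological coefficient of variation was 12%. Calls were made at an adjusted p under 0.05 (Benjamini-Hochberg, all tested genes). UV-A over the 4 matched pairs was a second model with 3 residual degrees of freedom. Ratios within a round used edgeR's likelihood ratio test with the dispersion of the main model. The procedure was tested on simulated data, but the settings and outcome of that test are not given here. A count of 0 allows up to 3 reads, or between 0.133 and 0.19 CPM depending on the library, for counting error only.

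The round number in the labels marks a shared batch, so it pairs the vehicle libraries, and deviations of same-round libraries from their group means correlated at 0.86. The round term is therefore kept as a replicate block. The vehicle light responses of the rounds correlated at only -0.058 over the tested genes, while the model held a single vehicle light response for both. Alternatives were DESeq2 1.42.0, median-of-ratios scaling, no filter, limma 3.58.1 on log2(FPKM + 1) and log2(FPKM + 0.1), no block, own-round vehicles and leaving out each vehicle library or pair. Named genes were all 10 members, up to 3 called genes of each list per comparison with the largest absolute change, TFDP1, TFDP2 and E2F6, and the 3 genes most like E2F1, E2F8 and RB1. CCND1, CCND3, CCNE1, SLBP, EZH2, CDKN2A and CDKN2B, named outside that rule, were chosen after their values were seen. Members and lists were chosen with earlier results of these data known. E2F8 had no promoter window in the table used. Windows on chromosome 8, where E2F5 lies, were left out, so none is given for E2F5. Of the 28 listed E2F targets, 1 was not analysed here.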

Additional observations from a re-analysis of the deposited data

Results flagged for a closer look

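In the dark the 2 compounds differed from each other, each relative to vehicle, by 2.625 for E2F1, 2.636 for E2F2, 1.21 for E2F8 and 1.158 for RBL1 in log2 units, all higher with 1-SO and each flagged because the difference itself passed edgeR's test. Compound and round cannot be told apart in these 4 values.

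UV-A acted differently in 1-SO cells than in vehicle cells for 3 members by the test of the interaction (edgeR), at -1.671 for E2F1, -3.018 for E2F2 and -1.385 for E2F8 on the log2 scale. For E2F1 and E2F8 this difference passed only with the vehicle light response shared between the rounds, and with the vehicle pair of round 1 alone E2F2 passed.

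The vehicle light response had opposite signs in round 1 and round 2 for 7 members, and that difference was not tested. Round 1 minus round 2, in log2 units, it was -1.499 for E2F2, -1.16 for E2F1, -0.772 for E2F8, -0.334 for RBL1, -0.313 for E2F4, -0.109 for E2F3 and 0.238 for RBL2. The round 2 ratios of these members ran from -0.047 for RBL2 to 0.256 for E2F2. Each was smaller in size than its SE, so their direction in round 2 is unsettled. In round 1 the same held for E2F3 at -0.082, E2F4 at -0.217 and RBL2 at 0.191, so neither sign is settled for them. With 1 library on each side of a ratio there is no replicate check of these values.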

How the results depend on the processing

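Of 25 called member values, none changed sign under any alternative run. UV-A within 1-SO cells uses no vehicle library, so leaving out a vehicle library could not change its values. Of 100 alternative values without a test, 49 moved by more than the SE of the main fit. Among 169 alternative values with a test, 116 were still called. Dropping the replicate block called 0 members in each of the 12 comparisons. DESeq2 called 1 member in irradiated 1-SO against vehicle (E2F2), 3 in dark 1-S against vehicle and 0 for the interaction with 1-SO. In irradiated 1-SO against vehicle, limma on log2(FPKM + 1) and on log2(FPKM + 0.1) each called 3 members (E2F1, E2F2 and E2F8), and the latter called 1 for the interaction (E2F1). Own-round vehicles left 1 member called for the interaction with 1-SO (E2F2). In vehicle cells the round 1 pair alone, chosen after seeing the data, called 1 member (E2F1), where the model of both rounds called 0. Without the filter on low values, UV-A over the 4 matched pairs called 2 members (E2F1 and E2F2). Of the 27603 genes tested in that setting, 223 were called lower and 56 higher. The cause of these changes was not tested. Leaving out a vehicle library left 0 residual degrees of freedom and so gave values with no test: for E2F1 they ran from -2.394 to -1.233 in irradiated 1-SO cells, from -1.971 to -0.81 in irradiated 1-S cells and from -2.245 to -1.085 for the interaction with 1-SO, and leaving out any of the 4 pairs called 0 members. Median-of-ratios scaling shifted the median of all genes by at most -0.003. A single library per compound group limits every comparison, and 41 reads of E2F2 in 1-SO UV-A limit its precision.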
